A study of Mus musculus with 16 samples.

Results

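The Krüppel-like factors examined here were Klf2, Klf3, Klf4, Klf6, Klf7, Klf9, Klf10, Klf11, Klf13 and Klf15, which were chosen by name and found by their Ensembl identifiers among 39057 gene rows of a read count table. All 10 passed the filter on low counts and belonged to the 12481 genes tested. The table covers 16 cultures of primary brain endothelial cells from the cerebral cortex of targeted replacement mice, in which the mouse gene is replaced and human APOE is driven by the endogenous mouse promoter. There were 8 APOE3 and 8 APOE4 cultures, 4 from males and 4 from females per genotype, each isolated from a different animal aged 21 to 28 days. All cultures received 8 µg/ml puromycin, a drug that removes cells lacking the efflux pumps of brain endothelium, were grown to confluence in endothelial medium on fibronectin, collagen and laminin, and were otherwise untreated. There was no mouse with murine Apoe among the groups, so each comparison is of one human isoform against the other, and a monolayer grown without flow or neighbouring brain cells is what was measured.

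Krüppel-like factors are transcription factors with zinc fingers at the carboxyl end that bind GC-rich and CACCC sequences. Klf2 and Klf4 are induced in endothelium by laminar shear stress through the ERK5 and MEF2 cascade, raise anticoagulant and vasodilator genes and lower adhesion molecules and chemokines. Klf9, Klf10, Klf11 and Klf13 recruit the SIN3A corepressor, Klf3 recruits CtBP, Klf6 and Klf7 act largely as activators, and Klf9 and Klf15 are known targets of the glucocorticoid receptor and of the circadian clock.

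The 250 bases before the RefSeq transcription start (GRCm38.p6) were found for 9 of the 10 members, Klf10 being the one not matched, and 3 of these promoters are printed, that of Klf15, which had the largest genotype difference, and those of Klf4 and Klf2, the shear stress factors. In Klf15 and Klf4 the capitals mark CACGTG, the E-box read by CLOCK and MYC family proteins, and in Klf2 they mark a MEF2 site. The Klf15 sequence is chr6:90462326-90462575 on the plus strand, the Klf4 sequence is chr4:55532476-55532725 on the minus strand, and the Klf2 sequence is chr8:72318812-72319061 on the plus strand.
Klf15: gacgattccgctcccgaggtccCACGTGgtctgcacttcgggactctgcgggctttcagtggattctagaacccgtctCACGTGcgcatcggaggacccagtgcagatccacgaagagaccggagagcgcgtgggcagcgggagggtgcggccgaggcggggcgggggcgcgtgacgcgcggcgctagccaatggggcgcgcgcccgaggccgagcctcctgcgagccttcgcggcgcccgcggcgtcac
Klf4: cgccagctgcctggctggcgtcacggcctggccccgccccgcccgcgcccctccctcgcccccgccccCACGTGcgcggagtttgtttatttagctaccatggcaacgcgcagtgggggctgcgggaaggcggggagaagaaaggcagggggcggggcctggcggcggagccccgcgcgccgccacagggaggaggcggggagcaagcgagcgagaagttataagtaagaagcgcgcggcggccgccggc
Klf2: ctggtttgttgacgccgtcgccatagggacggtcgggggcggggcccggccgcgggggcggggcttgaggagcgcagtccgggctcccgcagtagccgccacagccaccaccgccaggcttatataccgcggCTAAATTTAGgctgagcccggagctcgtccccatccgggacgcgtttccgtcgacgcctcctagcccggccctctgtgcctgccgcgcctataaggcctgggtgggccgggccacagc
CACGTG occurred in 4 of the 9 promoters (Klf4 and Klf15, which were lower with APOE4, and Klf6 and Klf11, which were not called) against 6.02% of all 32851 promoters of this length. The MEF2 site was found in Klf2 alone among the 9 and in 1.69% of all promoters, and it lay 118 to 109 bases before the start. GGGCGG, searched on both strands like every motif here, was in 8 of the 9 promoters against 32.7% of all, CACCC in 6 against 52.0%, CCAAT in 5 against 33.8% and TGACG in 5 against 17.8%. GGGCGG and CACCC can overlap. TATAAA, TGACGTCA and the CArG box were in 0 of the 9, against 12.4%, 1.55% and 1.47% of all. GC content was 59.2% to 78.4% in the members' promoters, and its median over all promoters was 52.4%. These matches describe letters in a window and are not evidence of binding.

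Libraries held 12717847 to 18624417 counts, the lowest being APOE4 replicate 35, and the members' counts were 233 to 10999 per library. Human APOE was counted in every library, at 1172 ± 174 CPM (SD, n = 8) with APOE3 and 796 ± 134 with APOE4, where CPM are counts scaled to the TMM-normalised size of the library. Of 13 brain endothelial markers, 13 were tested and 0 were called between genotypes, against 12.8% of all genes tested. At an unadjusted p under 0.05 by edgeR there were 4, against 29% of all genes. These were Cdh5, which was higher with APOE4, and Tie1, Tek and Slco1a4, which were lower. The summed levels of the 13 were 14508 to 15556 CPM with APOE3 and 14252 to 15744 with APOE4. P2ry12 and C1qa of microglia and Olig1 and Olig2 of oligodendrocytes had no counts. Of 9 pericyte and smooth muscle markers 5 were tested, 0 were called and 1 had an unadjusted p under 0.05 by edgeR, against the same shares. The 9 summed to 187 to 352 CPM with APOE3 and 221 to 338 with APOE4. In these bulk cultures fewer cells with a transcript and less of it per cell cannot be told apart.

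Compared with APOE3, APOE4 brain endothelial cells had lower transcript levels of Klf3, Klf4, Klf9, Klf13 and Klf15, by 11.3% to 29.1%. These are 5 of the 10 members, against 12.8% of all genes tested that differed in either direction and 6.09% that were lower. At an unadjusted p under 0.05 there were 6 members, the sixth being Klf2, against 29% of all genes. None of the other 5 members passed the threshold, and 0 members were higher, against 6.71% of all genes. The median log2 fold change was -0.19 over the members and -0.0002 over all genes tested. A gene was called where edgeR's quasi-likelihood test gave a Benjamini-Hochberg adjusted p under 0.05 over all genes tested. The ranges of the 2 genotypes overlapped for each of the 10 members, as they did for all but 0.625% of the genes tested.

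**Figure D1:**
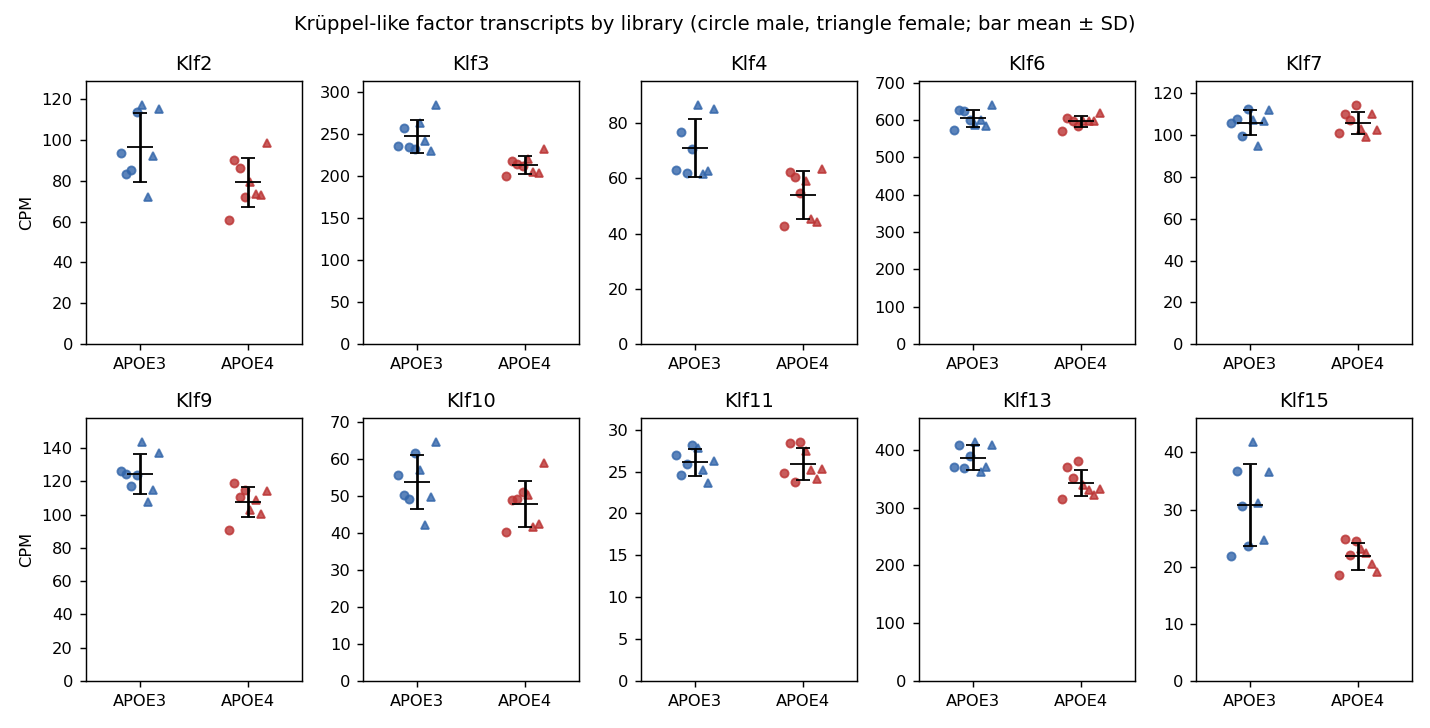
Transcript levels of the 10 Krüppel-like factors in CPM in each library, on axes that start at 0, with circles for males, triangles for females and bars for mean ± SD over 8 libraries. Klf3, Klf4, Klf9, Klf13 and Klf15 sit lower with APOE4, whereas Klf6, Klf7 and Klf11 occupy the same range in both genotypes.

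Klf15, which regulates gluconeogenic and amino acid genes, had the largest difference of the 10. Its level ran from 21.9 to 41.9 CPM with a median of 30.9 in APOE3 libraries and from 18.5 to 24.8 CPM with a median of 22.2 in APOE4 libraries. The APOE3 libraries were the more scattered, with 30.9 ± 7.18 CPM (SD, n = 8) against 21.8 ± 2.34, and 5 of them lay above every APOE4 library. The log2 fold change was -0.50 ± 0.12 (SE), which is 70.9% of the APOE3 level (adjusted p = 0.0115, edgeR).

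Klf4 was next. Its level ran from 61.7 to 86.4 CPM with a median of 66.7 in APOE3 libraries and from 42.9 to 63.3 CPM with a median of 56.7 in APOE4 libraries. The APOE4 libraries formed a lower trio at 42.9 to 45.4 CPM, replicates 35, 40 and 41, and a set of 5 from 54.5 CPM upwards. Klf4 fell by 0.39 ± 0.10 on the log2 scale (adjusted p = 0.0135, edgeR).

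Klf2, the other shear stress factor, did not pass the threshold. It measured 72.1 to 117 CPM with a median of 92.9 in APOE3 libraries, and 60.7 to 98.3 CPM with a median of 76.2 in APOE4 libraries. Of the APOE4 libraries, 7 of 8 lay below the APOE3 median. The log2 fold change was -0.29 ± 0.10 with a 95% interval of -0.50 to -0.08 (adjusted p = 0.0657, edgeR). DESeq2's Wald test called it (adjusted p = 0.0410), as did edgeR without APOE3 replicate 31 (adjusted p = 0.0194) or APOE4 replicate 43 (adjusted p = 0.0293), the lowest and the highest library of their groups. The paper named Klf2, beside Klf4 and Klf15, among transcripts that were lower in APOE4 cells. Its statement on Klf2 thus differs from the main fit here.

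Klf3, a repressor that works through CtBP, had the most separated groups. It ran from 229 to 284 CPM with a median of 239 in APOE3 libraries and from 200 to 232 CPM with a median of 213 in APOE4 libraries. In 7 of the 8 APOE4 libraries it was below the lowest APOE3 library, and APOE4 replicate 43 was the exception. It fell by 0.21 ± 0.04 on the log2 scale (adjusted p = 0.00808, edgeR). The annotation places Gm20033 on the opposite strand within Klf3, and whether counting used strand is not given in the sources used here.

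The SIN3A-binding members split. Klf13, which regulates chemokine transcription in lymphocytes, ran from 361 to 414 CPM with a median of 380 in APOE3 libraries and from 315 to 380 CPM with a median of 335 in APOE4 libraries. It fell by 0.17 ± 0.04 on the log2 scale (adjusted p = 0.0145, edgeR). Klf9, a glucocorticoid and thyroid hormone target linked with quiescence, ran from 107 to 144 CPM with a median of 124 in APOE3 libraries and from 90.9 to 119 CPM with a median of 110 in APOE4 libraries. In 5 of the 8 APOE3 libraries Klf9 was above every APOE4 library. It fell by 0.21 ± 0.06 on the log2 scale (adjusted p = 0.0251, edgeR), and the call was lost without APOE3 replicate 30 (adjusted p = 0.0595), APOE3 replicate 33 (0.0576) or APOE4 replicate 41 (0.0578).

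Klf10 and Klf11, both inducible by TGF-beta, were not called. Klf10 ran from 42.2 to 64.7 CPM with a median of 52.9 in APOE3 libraries and from 40.3 to 58.9 CPM with a median of 49.0 in APOE4 libraries, with a log2 fold change of -0.17 ± 0.08 (adjusted p = 0.181, edgeR). Klf11 ran from 23.7 to 28.2 CPM with APOE3 and from 23.7 to 28.6 CPM with APOE4, with medians of 26.1 and 25.3 and a log2 fold change of -0.01 ± 0.05 (adjusted p = 0.938, edgeR). Klf10 had the sign of the called members without passing the test, and the Klf11 groups covered nearly the same range.

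Klf6 and Klf7, the activators, were not called either. Klf6 ran from 573 to 640 CPM with a median of 600 in APOE3 libraries and from 570 to 619 CPM with a median of 598 in APOE4 libraries. The 95% interval of its APOE4 level was 94.5% to 103% of that with APOE3 (adjusted p = 0.710, edgeR). Klf7 ran from 95.04 to 113 CPM with APOE3 and from 99.3 to 114 CPM with APOE4, and its interval was 94.7% to 106% (adjusted p = 0.982, edgeR). Changes larger than these bounds are outside the intervals of Klf6 and Klf7, and smaller ones could not be resolved with this number of libraries.

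Library extremes recurred across members. APOE4 replicate 35 was the lowest APOE4 library for 8 of the 10 members, namely all but Klf7 and Klf11, and APOE3 replicate 31 was the lowest APOE3 library for 6. APOE3 replicate 30 was the highest of its group for 5 members and so was APOE4 replicate 43, Klf2 and Klf4 being among both sets. The 5 calls among the members were 4 to 6 when any single library was left out.

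The genotype difference was compared between the sexes. The difference between the female and the male genotype effect was called for no member, with 0 of 12481 genes called by edgeR and 345 (2.76%) at an unadjusted p under 0.05, of which 0 were members. Levels in females and males differed for 9 genes (0.0721%), of which 0 were members. In females 9 of the 10 members were below 0 and in males likewise 9. Klf15 had the widest gap, with a log2 fold change of -0.66 ± 0.16 in females and -0.32 ± 0.16 in males and a difference of -0.34 ± 0.23 (adjusted p = 1.000, edgeR). That difference was -0.21 without APOE3 replicate 30 and -0.49 without APOE3 replicate 26, the extremes when single libraries were left out, and it was not called in either fit. With 4 libraries per group, edgeR called 0 genes within either sex. At an unadjusted p under 0.05, 5 members passed in females, against 19.5% of all genes, and 2 passed in males, against 14.2%.

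**Figure D2:**
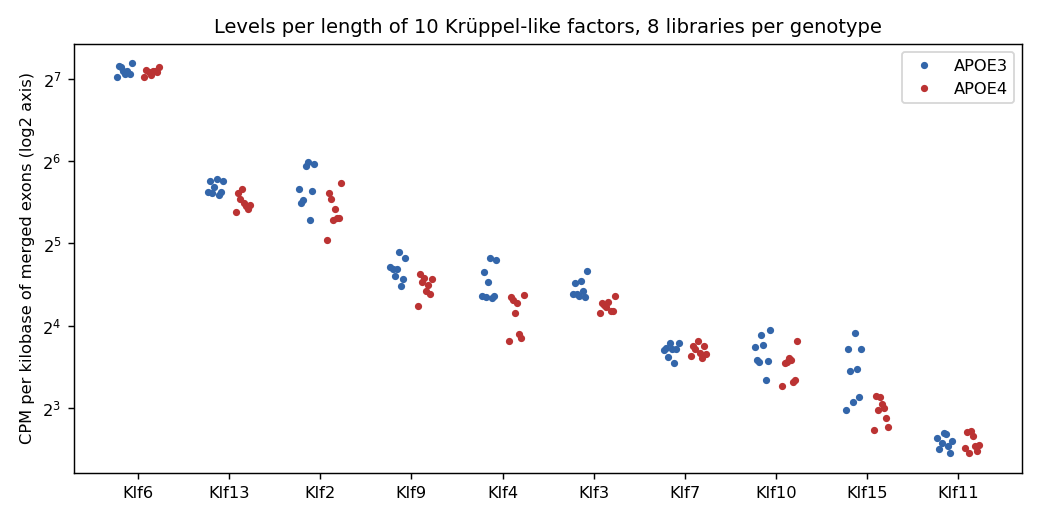
CPM per kilobase of merged exons for the 10 members on a log2 axis, 1 point per library, blue for APOE3 and red for APOE4. Klf6 stands above the rest, Klf13 and Klf2 overlap, and Klf11 is lowest.

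Per length, Klf6 was the most abundant member, at 137 ± 4.38 CPM per kilobase of merged exons (SD, n = 16), a level above that of 98.0% of the genes tested. Klf13 followed at 48.4 ± 4.13 and Klf2 at 47.5 ± 9.05 CPM per kilobase. Those 2 did not differ beyond their spread (exact sign-flip permutation test of the within-library log2 difference, two-sided, adjusted p = 0.435 over 9 neighbouring pairs). Klf9 at 24.1 ± 2.77, Klf4 at 20.5 ± 4.19 and Klf3 at 20.5 ± 2.06 CPM per kilobase formed the middle of the order, and Klf4 and Klf3 were not apart (adjusted p = 0.658, same exact test). Klf7 stood at 13.03 ± 0.67, Klf10 at 12.2 ± 1.73, Klf15 at 9.44 ± 2.49 and Klf11 at 6.00 ± 0.39 CPM per kilobase. The other 7 neighbouring pairs differed (adjusted p = 5.49e-05 to 0.0302, same exact test), of which Klf7 and Klf10 were no longer apart without any 1 of APOE3 replicate 31 and APOE4 replicates 35, 36, 38, 40 and 41, leaving 6. Within APOE3 libraries 5 of 9 neighbouring pairs were apart, Klf7 (13.02 ± 0.73) and Klf10 (12.9 ± 1.76) not among them (adjusted p = 0.633, same exact test), nor Klf10 and Klf15 (adjusted p = 0.201). Within APOE4 libraries 7 were apart, including Klf7 (13.04 ± 0.65) and Klf10 (11.4 ± 1.47) at an adjusted p of 0.0301 by the same exact test. The order of Klf13 and Klf2 and that of Klf4 and Klf3 was reversed between the genotypes, and neither pair was apart in either. With the longest transcript as the length, Klf3 rose to 44.0 CPM per kilobase and the fourth place, and Klf10 passed Klf7.

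Levels of several members were correlated from culture to culture. After centring log2 CPM within genotype, 44 of the 45 pairs of members had a positive Pearson r over the 16 libraries, with a median of 0.52, whereas the median over all 77881440 pairs of genes tested was -0.001. By permuting libraries within genotype 100000 times and adjusting over the 45 pairs, 12 pairs passed by r and 15 by Spearman's rho, and the 12 were among the 15. Such values of r, 0.65 or more, were reached by 26.7% of the member pairs and by 1.53% of all pairs. The points share libraries and their depth, and r is over cultures, not cells.

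**Figure D3:**
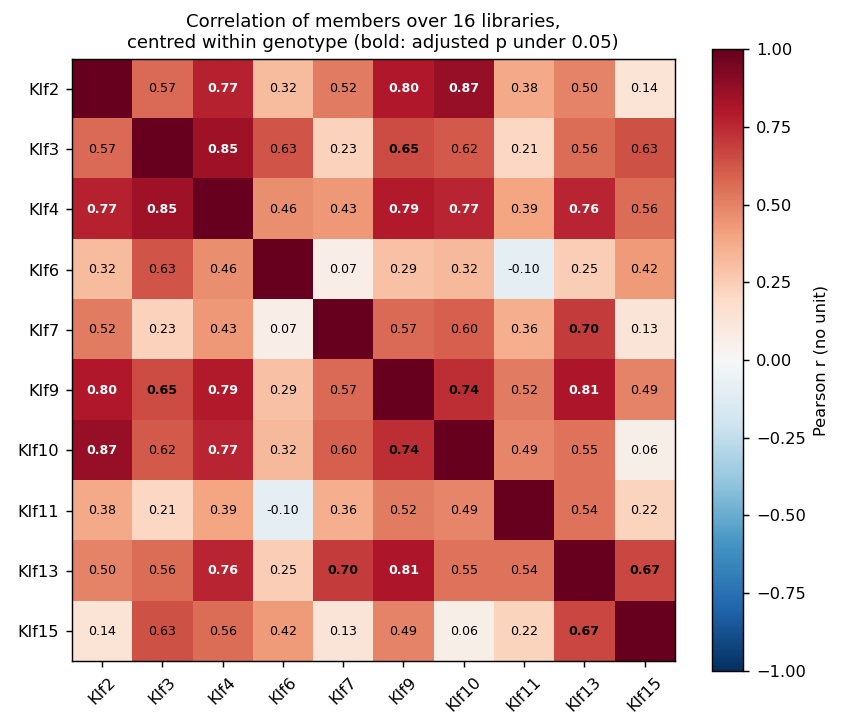
Pearson r between each pair of members over 16 libraries, centred within genotype, on a colour scale from -1 to 1, bold where the adjusted permutation p is under 0.05. Klf2, Klf4, Klf9 and Klf10 form a block of values of 0.74 and above, and Klf6 and Klf11 have no bold cell.

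The strongest pair was Klf2 with Klf10 (r = 0.87, rho = 0.80, permutation p = 6.00e-05, adjusted p = 0.00135). It was 0.93 within APOE3 and 0.80 within APOE4 libraries, and 0.80 without the 2 libraries farthest from the median of Klf2. In each pair of members the 2 farthest libraries were picked by the first-named gene only. Klf3 with Klf4 followed (r = 0.85, rho = 0.81, permutation p = 1e-05, adjusted p = 0.000450), the p being the smallest these permutations can give. It was 0.86 and 0.91 within APOE3 and APOE4 and 0.85 without the 2 farthest libraries. Klf9 with Klf13 had r = 0.81 and rho = 0.83 (permutation p = 0.000270, adjusted p = 0.00405), and r was 0.74 without the 2 farthest libraries.

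Each pair among Klf2, Klf4, Klf9 and Klf10 passed, with r from 0.74 to 0.87. Klf2 with Klf4, the shear stress factors, had r = 0.77 and rho = 0.78 (permutation p = 0.00123, adjusted p = 0.00791), and r was 0.74 without the 2 farthest libraries. The other pairs that passed were Klf3 with Klf9, Klf4 with Klf13, Klf7 with Klf13 and Klf13 with Klf15, with r from 0.65 to 0.76. Klf6 and Klf11 were in none of them, and r between Klf6 and Klf11 was -0.10, the one negative value over the 16 libraries. Some pairs had unlike r in the 2 genotypes. Klf2 with Klf6 had -0.003 within APOE3 and 0.91 within APOE4 libraries, and Klf2 with Klf7 had 0.82 and 0.12. Such differences were not tested. Klf3 with Klf9 passed in 10 of 16 fits that left out 1 library. Centred within genotype and sex, 14 pairs passed and Klf3 with Klf9 did not (adjusted permutation p = 0.0607). Without APOE4 replicate 43, 21 pairs passed.

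The genes whose pattern was most like each member, by r over the 16 genotype-centred libraries, were as follows, as a description. For Klf2 they were Vgll4 (r = 0.96), a cofactor that competes for TEAD proteins, Gipc3 and Nbeal2 (both 0.95). For Klf3 they were Btg2 (0.94), an antiproliferative gene, Tsc22d3 (0.94), which encodes the glucocorticoid-induced leucine zipper, and Hopx (0.93). For Klf4 they were Zic2 (0.95), Cyp2d22 (0.93) and Ppp2r5a (0.93). For Klf9 they were Megf6 (0.94), Ogt (0.93) and Fam160b1 (0.93), and for Klf10 Sema6d (0.94), Rasgrp2 (0.91) and Sfxn3 (0.91). For Klf13 they were Kif26a (0.92), Hif3a (0.91) and Med13l (0.91), and for Klf15 Tob1 (0.88), Slc7a8 (0.86) and Flt3l (0.86). The members with a genotype difference near 0 had Ssh2 (0.90), Alg11 (0.87) and Gnb4 (0.86) for Klf6, Prrc2c (0.87), Gcn1l1 (0.86) and Notch1 (0.85) for Klf7, and Fam135a (0.88), Tmem115 (0.86) and Ids (0.83) for Klf11. Of these 30 genes, edgeR called 14 lower with APOE4 and 0 higher, among them all 3 listed for Klf9 and all 3 listed for Klf10, and 16 were not called. Over all genes tested 6.09% were lower and 6.71% higher. The 30 were picked by their r to the members in these same libraries, so their count is not separate evidence about the members.

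Levels of 6 of the 10 members were inversely related to the level of cell cycle genes, as were those of many other genes. The weakest of the 6 was Klf13 (r = -0.73), and 4.53% of the other genes tested had a lower r. The mean log2 CPM of 20 cell cycle genes was 5.74 ± 0.32 (SD, n = 8) with APOE3 and 6.29 ± 0.26 with APOE4, and 18 of the 20 were called higher and 0 lower, their median on the log2 scale being 0.60. This mean is of RNA and does not count dividing cells. At confluence the paper found cell density and bromodeoxyuridine-labelled nuclei alike in both genotypes. APOE4 replicate 35, the lowest library for most members, had the highest mean of all, 6.76, and APOE3 replicates 30 and 33, often the highest for members, had the lowest, both 5.31. Within genotype, all 10 members had a negative r with this mean. Klf9 had r = -0.94 and rho = -0.89 (permutation p = 1e-05, adjusted p = 1e-04 over 20 relations), and of the other genes tested 0.0482% had a lower r. For Klf4 r was -0.87 and rho -0.89 (permutation p = 1e-05, adjusted p = 1e-04), and for Klf2 r was -0.87 and rho -0.76 (permutation p = 5.00e-05, adjusted p = 0.000250), with 0.730% and 0.634% of the other genes lower. The p of 1e-05 is the smallest these permutations can give.

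**Figure D4:**
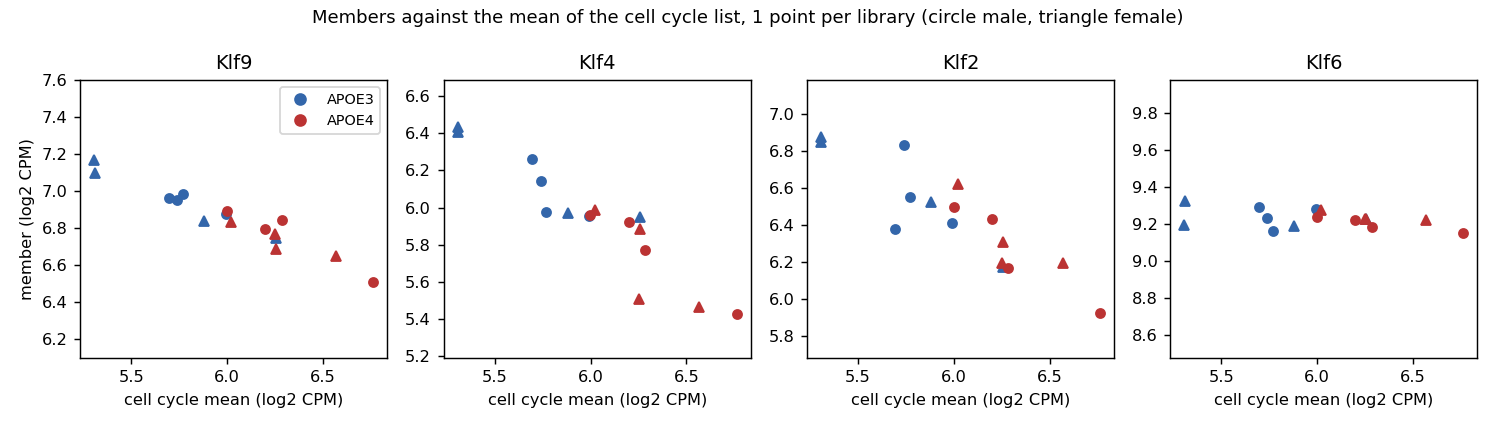
Log2 CPM of Klf9, Klf4, Klf2 and Klf6 against the mean log2 CPM of the cell cycle list, 1 point per library, blue for APOE3 and red for APOE4, with vertical axes of equal length. Klf9, Klf4 and Klf2 descend from the libraries at 5.31 to the library at 6.76 along one band that both genotypes share, and the Klf6 points span a narrower range.

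Klf10 (r = -0.80, rho = -0.66, permutation p = 0.000490, adjusted p = 0.00146), Klf3 (r = -0.75, rho = -0.80, permutation p = 0.00159, adjusted p = 0.00336) and Klf13 (r = -0.73, rho = -0.81, permutation p = 0.00168, adjusted p = 0.00336) passed as well. Without the 2 libraries farthest in the cell cycle mean r was -0.90 for Klf9, -0.87 for Klf4, -0.77 for Klf2, -0.66 for Klf10, -0.83 for Klf3 and -0.63 for Klf13. Within genotype and sex it was -0.95, -0.88, -0.87, -0.82, -0.76 and -0.82 in the same order. Of the other genes tested, 2.3% had a lower r than Klf10, 3.64% than Klf3 and 4.53% than Klf13. Klf15, Klf6, Klf7 and Klf11 did not pass, with r from -0.52 to -0.39 and adjusted permutation p from 0.0749 to 0.201. Between 14.7% (Klf7) and 22.3% (Klf6) of the other genes had a lower r than these members. Klf15, which had the widest genotype difference, was thus among those whose relation to the cell cycle mean was not called. For Klf6 r was -0.19 within APOE3 and -0.79 within APOE4 libraries, a difference that was not tested.

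With the cell cycle mean as a covariate in the edgeR fit, 0 of the 10 members were called, 0 at an unadjusted p under 0.05, and their lowest adjusted p was 0.728. With the covariate 0 of 12481 genes were called and 915 had an unadjusted p under 0.05. The log2 fold change of Klf15 was then -0.25 ± 0.14, that of Klf3 -0.08 ± 0.05, that of Klf13 -0.05 ± 0.05 and that of Klf4 -0.03 ± 0.07. Those of Klf9, Klf2 and Klf10 changed sign, to 0.03 ± 0.04, 0.11 ± 0.07 and 0.12 ± 0.08. Of the pairs of members 0 passed once a line on the cell cycle mean was removed, 6 of 45 had an unadjusted permutation p under 0.05, and the median r was 0.04. Because the cell cycle mean differs between the genotypes, its part in the members' differences and that of genotype cannot be told apart in these cultures.

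**Figure D5:**
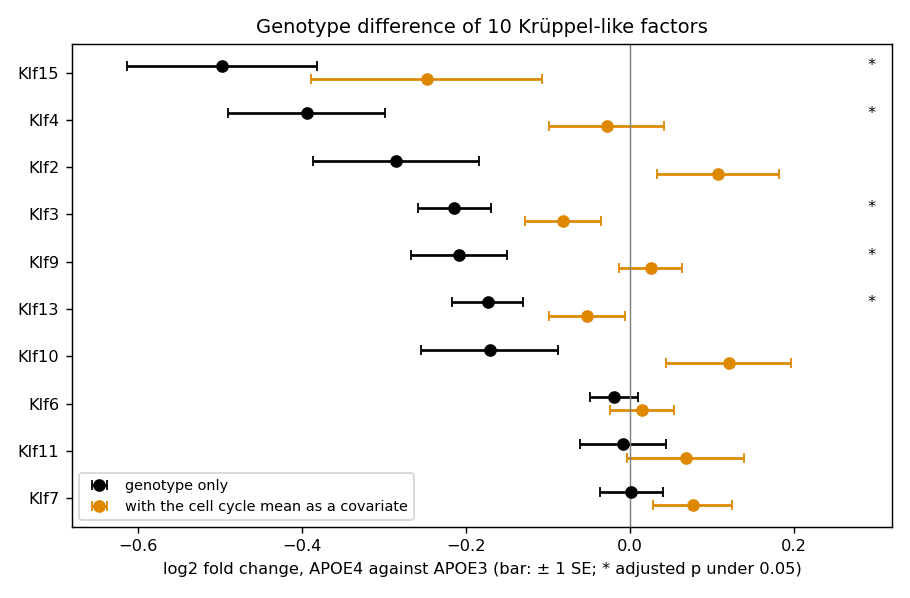
Log2 fold change of each member, APOE4 against APOE3, with ± 1 SE, from the fit on genotype (black) and from the fit that adds the cell cycle mean (orange), with asterisks for an adjusted p under 0.05. The 5 black values with an asterisk lie at -0.50 to -0.17, and the orange values of the same genes lie between -0.25 and 0.03 with no asterisk.

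The same 6 members were positively related to immediate-early genes, the first to respond to serum and stress. The 2 list means tended to run in opposite directions over libraries. In APOE3 replicates 30 and 31 the cell cycle mean was 5.31 and 6.26, and the immediate-early mean 5.50 and 5.28. In APOE4 replicates 43 and 35 the cell cycle mean was 6.02 and 6.76, and the immediate-early mean 5.37 and 5.15. The relation to immediate-early genes was not computed with the cell cycle mean removed, so the 2 relations cannot be told apart here. The mean log2 CPM of 21 immediate-early genes was 5.38 ± 0.09 (SD, n = 8) with APOE3 and 5.25 ± 0.09 with APOE4. Within genotype Klf2 had r = 0.86 and rho = 0.86 with it (permutation p = 4.00e-05, adjusted p = 0.000250), Klf4 r = 0.84 and rho = 0.86 (permutation p = 0.000410, adjusted p = 0.00146) and Klf9 r = 0.80 and rho = 0.78 (permutation p = 0.000510, adjusted p = 0.00146). Without the 2 libraries farthest in the immediate-early mean these were 0.85, 0.85 and 0.78, and within genotype and sex 0.88, 0.84 and 0.80. Klf10, Klf3 and Klf13 passed as well, with r from 0.61 to 0.76 and adjusted permutation p from 0.00300 to 0.0302. Of the other genes tested, 0.12% had a higher r than Klf2, 0.241% than Klf4 and 0.851% than Klf9. The share was 1.48% for Klf10, 5.76% for Klf3 and 6.93% for Klf13. Klf7 (r = 0.55), Klf11 (0.28), Klf15 (0.21) and Klf6 (0.18) did not pass, with adjusted permutation p from 0.0515 to 0.527. Between 9.94% (Klf7) and 36.1% (Klf6) of the other genes had a higher r than these members. For Klf6 r was -0.17 within APOE3 and 0.73 within APOE4 libraries, a difference that was not tested. Of the 21 genes themselves, Zfp36, a destabiliser of inflammatory transcripts (log2 fold change -0.28 ± 0.05), and Ier2 (-0.19 ± 0.06) were lower and Ier3 (0.18 ± 0.05) was higher by edgeR, and the median was -0.15. These 3 calls among 21 genes stand beside 12.8% of all genes tested that were called. At an unadjusted p under 0.05 there were 12 of the 21, against 29% of all genes.

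Other family members did not pass the test. Of 16 other KLF and SP genes 9 were tested and 0 were called by edgeR in either direction, with 3 at an unadjusted p under 0.05 and a median log2 fold change of -0.01. Among all genes tested 12.8% were called and 29% had an unadjusted p under 0.05. Klf8 had the largest value, 0.59 ± 0.24, at 1.61 ± 0.74 CPM (SD, n = 8) with APOE3 and 2.43 ± 0.59 with APOE4 (adjusted p = 0.113). Klf1, Klf14, Klf17, Sp8 and Sp9 had at most 3 counts in any library.

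Genes above and below Klf2 and Klf4 in endothelium were mixed. Over all genes tested 6.09% were lower and 6.71% higher. These shares apply to the counts here and to those of the partner, ligase, clock and glucocorticoid lists below. Of 12 tested genes of the ERK5, MEF2 and CCM pathways, Map3k2, a kinase at the top of the cascade (-0.23 ± 0.07), and Mef2d (-0.13 ± 0.04) were lower, and Heg1, the receptor of the CCM complex (0.14 ± 0.04), was higher, as log2 fold changes. Of 9 tested genes that Klf2 or Klf4 induce, Gja5, the gap junction gene of arteries, was higher (0.60 ± 0.12, adjusted p = 0.00715), 0 were lower and the median was -0.11. Nos3, the endothelial nitric oxide synthase, had 750 ± 76.1 CPM (SD, n = 8) with APOE3 and 638 ± 94.0 with APOE4 and missed the threshold (-0.23 ± 0.08, adjusted p = 0.0538). Of 9 tested genes that these factors repress, 3 were higher, 0 were lower and the median was 0.26. They were Vcam1, a leukocyte adhesion molecule (0.43 ± 0.07, adjusted p = 0.00423), Ace (0.46 ± 0.09, adjusted p = 0.00643) and Ccl2, a monocyte chemokine (0.55 ± 0.17, adjusted p = 0.0359). Vcam1 was one of the 0.625% of genes whose genotype ranges did not overlap, all APOE4 libraries lying above. Whether Klf2 or Klf4 acts on these genes in these cultures was not tested.

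Among partners of the proteins, the corepressor genes Sin3a (-0.12 ± 0.04) and Sin3b (-0.12 ± 0.03) were lower and Hdac1 (0.14 ± 0.04) was higher, 3 of 10 tested, with a median of -0.04. Of 7 genes of ubiquitin ligases that act on these factors, Wwp1, which targets Klf2, was higher (0.29 ± 0.06, adjusted p = 0.00872) and 0 were lower.

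The clock list, which holds known regulators of Klf9 and Klf15, had 7 of 16 genes lower and 1 higher, with a median log2 fold change of -0.19. The lower ones were Nr1d1 (-0.53 ± 0.14), Nr1d2 (-0.53 ± 0.11), Dbp (-0.56 ± 0.15), Tef (-0.51 ± 0.09), Per1 (-0.24 ± 0.05), Per2 (-0.25 ± 0.07) and Per3 (-0.44 ± 0.09), and Bhlhe41, a repressor of the clock, was higher (0.54 ± 0.14). Of 12 glucocorticoid-responsive genes, Tsc22d3 (-0.31 ± 0.08) and Per1, which both lists hold, were lower, the metallothioneins Mt1 (0.39 ± 0.11) and Mt2 (0.42 ± 0.11) were higher and the median was 0.0006. As over all genes, none of the calls in these lists was made with the cell cycle mean as a covariate.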

How the data were processed

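Each of 16 cultures gave 1 poly-A RNA library (100 ng of RNA, 17 PCR cycles), read from both ends over 50 nt. The authors deposited raw read counts per gene, without normalization, in 1 table of 39057 rows, and the submitters' processing notes name STAR, featureCounts, mm10 and hg38. Versions and the strand setting are not given in the sources used here. All columns were mapped to a culture by the labels, and 0 were left unmapped. Identifiers were matched to GENCODE vM21 for 38872 of 39056 mouse rows. 0 pairs of libraries were identical. Reads carry no molecular identifiers, so depth limits counting error only.

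Counts were fitted in R 4.3.3 with edgeR 4.0.16 (filterByExpr by genotype, TMM, quasi-likelihood F test, Benjamini-Hochberg over 12481 genes, threshold 0.05), and DESeq2 1.42.0 and limma 3.58.1 served as alternatives. The SE is the log2 fold change over the square root of F. CPM are TMM-scaled, and log2 CPM used a prior count of 2. Sexes were compared in 1 edgeR fit of 4 groups. Correlations and list means were computed in Python 3.11.15 with 100000 permutations within genotype, and neighbours in level by exact sign flips. The fit was tested on simulated data. Where the annotation shows overlap (Gm20033 in Klf3, Gm26649 in Klf7, Gm27252 in Klf13, Mir1192 in Klf9), reads of both genes could be split. At most 0.268% of the 50-base words in the longest transcript of any member occur in an annotated transcript of another gene. Other exons were not searched, and for Klf3 the longest transcript has 5221 bases against 11243 of merged exons.

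The members, gene lists and tests were chosen with earlier results of these data known. The named genes are the 10 members, called genes of the lists and the 3 genes with the highest r to each member. Relations to the list means of cell cycle and immediate-early genes were added after the data were seen, and so was the naming of Klf8 and Nos3. Promoters are from RefSeq, GRCm38.p6.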

Additional observations from a re-analysis of the deposited data

How the results depend on the processing

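The 5 calls among the Krüppel-like factors were made again with DESeq2's size factors, with no filter on low counts, with at least 10 counts in every library, with sex as a covariate, with limma voom and with offsets for GC content and length, and DESeq2's Wald test called 6. The cell cycle mean as a covariate left 0 members and 0 of 12481 genes called, a member median of 0.020, and log2 fold changes of 0.11 for Klf2, 0.015 for Klf6, 0.025 for Klf9, 0.12 for Klf10 and 0.068 for Klf11. Klf7 was -0.0015 with no filter and -0.019 with the GC and length offsets, and -0.019 to 0.015 with single libraries left out, while Klf11 was -0.030 to 0.0095. With single libraries left out, the calls over all genes ran from 846 (without APOE4 replicate 41) to 2127 (without APOE3 replicate 31), with 853 without APOE3 replicate 30 and 952 without APOE3 replicate 33, and the calls among members from 4 to 6. Of the pairs of members, 19 passed with no centring, 0 with the cell cycle mean regressed out and 11 to 21 with single libraries left out. With the cell cycle mean regressed out r was -0.16 for Klf2 with Klf9, -0.29 for Klf3 with Klf9, -0.16 for Klf4 with Klf9 and -0.071 for Klf9 with Klf10. Neighbours apart in level per length were 6 to 8 of 9 over the length alternative and single libraries left out, and 5 within APOE3 and 7 within APOE4 libraries, a split chosen after seeing the data. The cause of these changes was not tested. Klf3 with Klf9 also missed the threshold when centred within genotype and sex and without any 1 of 6 libraries. No paired analysis was made, because the labels give no pairing of APOE3 with APOE4 cultures. Libraries were numbered with all of APOE3 before all of APOE4, and any effect of that order cannot be told apart from genotype. Each difference rests on 8 cultures per genotype, so that differences as small as those of Klf6, Klf7 and Klf11 could not be resolved.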
